A study of Mus musculus with 11 samples.

Results

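The comparison set the infarcted left cerebral cortex against the opposite, non-infarcted cortex 1 month after a photothrombotic stroke in the mouse. Its members were the 4 libraries labelled 1 m, chosen by their labels from 11 in the series: the infarcted and the non-infarcted side without drug, and the infarcted and the non-infarcted side with levetiracetam (LEV), an anti-seizure drug. The sides were compared over 2 against 2 libraries with the treatment as the pair, and each pair was also read alone. The strain was C57BL/6N and all mice were male. The infarct was made by injecting rose bengal, a dye that blocks vessels when lit, at 35 mg/kg and lighting a circle of 3.5 mm over the left parietal cortex for 30 minutes with a 565 nm LED at 200 mW, and LEV was given in the drinking water at 5 mg/mL. Ages of 8 to 10 and of 65 to 85 weeks are given for the study and not for each library, so age and group cannot be told apart here. The labels place LEV at 7 d and at 1 m, while the design text starts it at 1 month for 2 weeks, and the labels were followed. Libraries used only as a reference were naive cortex (1), both sides at 7 d without and with LEV (4), and both sides 2 m after the stroke with LEV withdrawn for 2 weeks by the label and 1 week by the design text (2). EEG electrodes and injections of the convulsant pentylenetetrazol belong to the study, and the labels do not say which libraries had them. Each group was 1 library of total RNA from cerebral cortex. Nothing states how many mice a library held or whether both sides came from the same mice, so every p-value measures the spread between these libraries only.

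After a cortical infarct, microglia and recruited macrophages take up dead cells and myelin, a task that needs lipoproteins, lysosomes and complement. Astrocytes at the border become reactive, raise intermediate filaments such as GFAP and form a scar, while fibroblasts lay down collagen in the core. Neurons of the surrounding cortex lose and remake connections, and the balance of parvalbumin interneurons and pyramidal cells there has been studied in relation to seizures after stroke. Cap analysis of gene expression (CAGE) counts the capped 5′ ends of transcripts, so each value is the number of tags assigned to a gene, scaled to the library's total as CPM.

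The 4 libraries held 13769133 to 21000367 tags, within the range of 12928291 to 21000367 over the series, and 3 tags, the smallest level used as a base for a ratio, were 0.143 to 0.218 CPM in them. The excitatory neuron gene Slc17a7 was present at 615 to 1738 CPM, Gfap of astrocytes at 107 to 444 CPM and Mbp of myelin at 1356 to 2008 CPM, so the defining genes of cortex were well above the floor in each. Some genes had 1 library far from the rest. Git1, a scaffold protein of synapses, was at 314 CPM in the untreated non-infarcted library and at 51.1 to 123 CPM in the other libraries. Such genes are therefore given with both pairs side by side throughout.

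At a mean of at least 1 CPM over the 4 libraries, 16098 genes were tested on log2(CPM + 1) with limma, treatment being a factor. A gene was called at a Benjamini-Hochberg adjusted p under 0.05. 138 genes were called (0.857% of those tested), of which 130 were higher (0.808%) and 8 lower (0.0497%) on the infarcted side. All 138 had the same sign in both pairs, which a test over 2 pairs nearly requires. Where both infarcted libraries of a called gene are said to lie above or below both opposite ones, this describes the values behind its call. It adds no support, and the share of all genes with such an order was not counted. Over all genes tested, 35.4% were positive and 27.1% negative in both pairs, and 59.0% had the larger difference in the untreated pair, which are the shares to set beside the counts of list members given for each list. Differences of the higher genes ran from 0.35 to 3.67 on the log2 scale and 70 of them reached 1, whereas the 8 lower genes lay between -0.32 and -0.43. The higher side counted 122 genes when genes that share their tags were counted once. Nearest the limit on expression, Tnfrsf22 and Fam186b lay just below it at means of 0.997 and 0.996 CPM, and Mmp23 and Gm20661 just above it, each at 1.00 CPM. The test has 1 residual degree of freedom, which is the gap between the untreated and the LEV pair, with spread also borrowed across genes. A wide gap thus raises a gene's p, and a gene left uncalled for it may still differ between the sides. The count moved to 40 with edgeR and 66 with DESeq2 on recovered tags. It moved to 1 without the mean-variance trend and to 0 without the pairing, where 782 genes had an unadjusted p under 0.05. 31 genes were called in all of 7 settings, and 16 of those also after centring on the median gene. The settings were limma as above, a smaller pseudocount, no limit on expression, TMM factors, edgeR, DESeq2 and a fit over 10 lesion libraries. Among the 31 were Lcn2, Gfap, Serpina3n, Vim, C4b, Chil1, Spp1, Apoc1, Apoe, Tyrobp, C1qa, C1qb and C1qc. Called only in some of the 7 were Lgals3, Gpnmb, Clec7a, Cst7, Trem2, Apoc4, Cd68, Ctss, B2m, Cx3cr1, Dcn and Drd1. The fit over 10 lesion libraries called 290 genes. Leaving a library of 1 month out of that fit leaves 1 pair of 1 month, so its count then rests on single libraries.

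Genes of reactive astrocytes were higher on the infarcted side, with close medians in both pairs. Of 15 listed genes tested, 6 were called higher and none lower: Lcn2, Gfap, Serpina3n, Vim, Cd44 and S1pr3. The list's median difference was 0.80, against 0.02 for all genes tested, and it was 0.80 in the untreated pair and 0.71 in the LEV pair. Lcn2, an iron-binding secreted protein of reactive astrocytes and myeloid cells (chr2:32384633-32388252, minus strand, GRCm38), was at 16.7 CPM on the untreated infarcted side and 22.5 CPM on the LEV infarcted side, against 0.726 and 1.33 CPM opposite. Both infarcted libraries thus stood far above both opposite ones and the naive cortex (1.01 CPM). The ratio was 22.9 in the untreated pair (95% interval 12.3 to 48.5, counting error only) and 16.9 in the LEV pair (11.5 to 25.7), and the log2 difference was 3.34 ± 0.15 (SE, n = 2 against 2 libraries, limma adjusted p = 0.0002). It was the 1 gene still called by limma without the mean-variance trend.

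Gfap, the intermediate filament that defines astrocyte reactivity (chr11:102887336-102900912, minus strand), was at 384 and 444 CPM on the infarcted side without and with LEV, and at 107 and 158 CPM opposite. Both infarcted libraries stood above both opposite ones, of which the untreated one was close to the naive 109 CPM. The log2 difference was 1.66 ± 0.08 (adjusted p = 0.000252). Serpina3n, a secreted protease inhibitor of reactive astrocytes that belongs to a family of close copies, measured 19 and 26.7 CPM against 4.94 and 8.90 CPM (1.62 ± 0.12, adjusted p = 0.00181). Vim, the filament vimentin, measured 51.9 and 64.6 CPM against 21.6 and 25.9 CPM (1.25 ± 0.08, adjusted p = 0.0009). Each of these genes was higher in the LEV infarcted library than in the untreated infarcted one, a comparison of single libraries with no test. The hyaluronan receptor Cd44 (1.22) and the sphingosine receptor S1pr3 (0.80) were also called.

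The promoter of Gfap is shown because it holds a match to the letters TTCCNGGAA, the inverted repeat bound by STAT factors, near its start. It is chr11:102897171-102897450 (GRCm38.p6, minus strand, RefSeq), from 250 bases before to 30 after the start, with the match in capitals.
Gfap: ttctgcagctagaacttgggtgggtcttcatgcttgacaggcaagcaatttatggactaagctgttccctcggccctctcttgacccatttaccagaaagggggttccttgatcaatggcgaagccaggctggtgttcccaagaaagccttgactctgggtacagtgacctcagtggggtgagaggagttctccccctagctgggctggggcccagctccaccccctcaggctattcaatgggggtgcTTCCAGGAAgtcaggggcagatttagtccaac

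Genes of astrocyte homeostasis differed little. Among 14 tested, 1 was called, the water channel Aqp4, at 31.7 and 35.9 CPM on the infarcted side against 20.3 and 22.3 CPM opposite (0.64 ± 0.09, adjusted p = 0.0238). The glutamate transporter Slc1a2 was at 1166 and 1285 CPM against 1203 and 1322 CPM (-0.04 ± 0.05, adjusted p = 0.748). The potassium channel Kcnj10 was at 36.4 and 34.7 CPM against 30.7 and 30.5 CPM (0.21 ± 0.09, adjusted p = 0.294). Of the 14, 11 were positive and 1, Slc1a2, negative in both pairs, beside 35.4% and 27.1% of all genes. The list's median was 0.13.

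**Figure D1:**
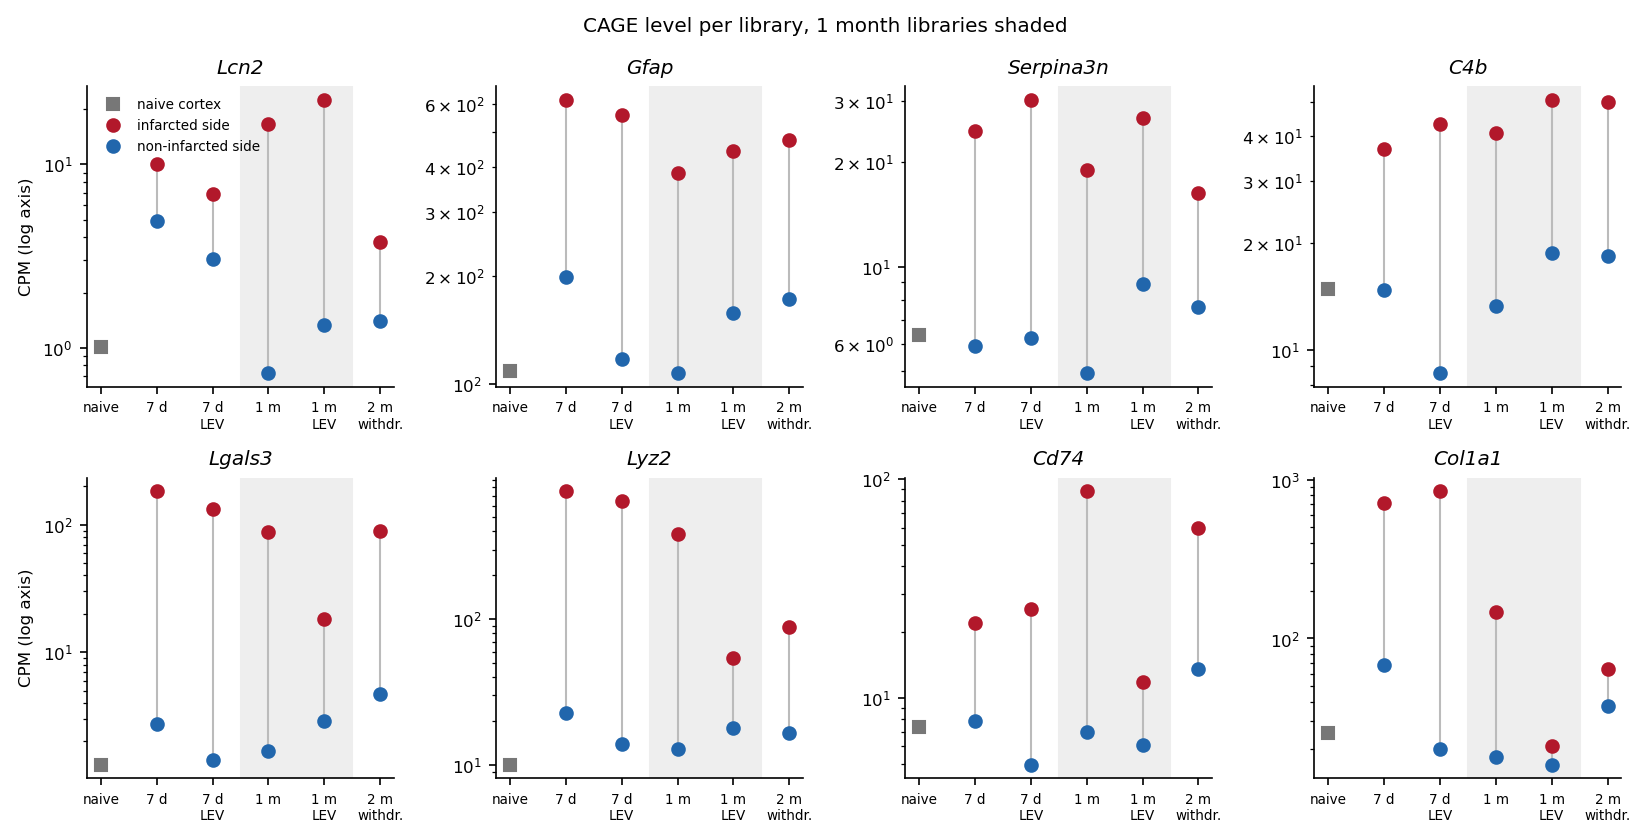
CPM (log axis) of 8 genes in all 11 libraries, with a red point for the infarcted side, a blue point for the non-infarcted side, a grey line joining the sides of a state and a grey square for naive cortex; the 1 month libraries are shaded. Lcn2, Gfap, Serpina3n and C4b differ alike in both 1 month pairs, whereas Lgals3, Lyz2, Cd74 and Col1a1 are higher in the untreated infarcted library than in the LEV one.

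Genes that microglia switch on when they take up debris formed the largest group of calls. Of 17 listed genes tested, 12 were called higher and none lower: Trem2, Tyrobp, Apoe, Cst7, Lpl, Clec7a, Gpnmb, Spp1, Cd9, Cd63, Csf1 and Lgals3. All 17 were positive in both pairs, with a median of 1.13 (1.34 without and 0.88 with LEV). In these bulk samples, more cells of a type and more RNA per cell cannot be told apart. Lgals3, a lectin of phagocytes that binds damaged lysosomes (chr14:47367751-47386160, plus strand), had the largest difference of any called gene. It was at 87.2 and 18.2 CPM on the infarcted side, at 1.67 and 2.90 CPM opposite and at 1.31 CPM in naive cortex. The log2 difference was 3.67 ± 0.50 (adjusted p = 0.0186), and the ratio was 52.2 in the untreated pair but 6.27 in the LEV pair.

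The phagocyte membrane protein Gpnmb followed the same order, with 53.9 and 12.9 CPM against 1.60 and 2.81 CPM (3.14 ± 0.46, adjusted p = 0.0272). Clec7a, a receptor for fungal glucans that marks activated microglia, was at 17.4 and 6.66 CPM against 0.218 and 1.19 CPM (2.86 ± 0.41, adjusted p = 0.024). In each of these 3 genes both infarcted libraries stood above both opposite ones, and the untreated infarcted library above the LEV one. None of the 3 was called in all of the 7 settings named above, the adjusted p of Clec7a being 0.091 with edgeR and 0.407 with DESeq2. Spp1, which encodes osteopontin and shares its tags with the overlapping Gm42793, differed less between the pairs, at 26.0 and 17.7 CPM against 5.01 and 5.33 CPM (1.86 ± 0.16, adjusted p = 0.00284). Cst7, an inhibitor of lysosomal proteases, went the other way between the pairs. It was at 1.44 and 3.96 CPM on the infarcted side and at 0 and 0.19 CPM opposite (1.67 ± 0.25, adjusted p = 0.0308). It was at least 6.59-fold higher against a floor of 3 tags in the untreated library, and 20.8-fold higher with LEV (95% interval 7.79 to 78.2).

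Trem2, the lipid-sensing receptor of microglia, was at 29.4 and 26.8 CPM against 10.3 and 14.3 CPM (1.14 ± 0.14, adjusted p = 0.0156), and its adaptor Tyrobp at 235 and 140 CPM against 80.2 and 72.5 CPM (1.24 ± 0.12, adjusted p = 0.00455). Apoe, the main lipid carrier of the brain, was the most abundant called gene of this group at 2591 and 2126 CPM against 1020 and 1199 CPM (1.08 ± 0.10, adjusted p = 0.00379). Markers of resting microglia moved less: 4 of 13 tested were called higher, among them Aif1 (0.77), Cx3cr1 (0.62) and Csf1r (0.52). P2ry12, a purine receptor of resting microglia, was at 23.1 and 27.1 CPM against 18.5 and 20.4 CPM and was not called (0.35 ± 0.10, adjusted p = 0.14). Summed over this list, the infarcted libraries were at 613.05 CPM without and 613.23 CPM with LEV, and the opposite ones at 381 and 421 CPM. The sum hides members that went either way, and 10 of the 13 had the larger difference in the untreated pair. Outside the lists, Mpeg1, a pore-forming protein of phagocytes (1.83), the leukocyte surface proteins Cd52 (1.96) and Cd84 (1.74) and the survival gene Bcl2a1b, one of several near-identical copies that also shares tags with Gm29094 (1.88), were among the highest called.

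Lysosomal and lipid genes accompanied them. Of 15 lysosome genes, 8 were called higher and none lower (Cd68, Ctss, Ctsz, Ctsd, Laptm5, Npc2, Grn and Hexa), with a median of 0.59. Cd68, a lysosomal membrane protein of phagocytes, was at 42.8 and 27.0 CPM against 9.22 and 12 CPM (1.60 ± 0.20, adjusted p = 0.0166). The protease cathepsin D, Ctsd, was at 260 and 222 CPM against 103 and 128 CPM (1.06 ± 0.11, adjusted p = 0.00672), and cathepsin S, Ctss, at 114 and 78.2 CPM against 28.8 and 39.7 CPM (1.45 ± 0.19, adjusted p = 0.018). All 15 genes had the larger difference in the untreated pair. Of 11 lipid-handling genes, 4 were called: the apolipoproteins Apoc4 and Apoc1, the cholesterol exporter Abca1 and the mRNA-editing enzyme Apobec1.

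Apoc4 (chr7:19678083-19681479, minus strand), whose tags cannot be told from those of the overlapping Gm44805, was at 16.0 and 12.6 CPM on the infarcted side and at 0 and 1.19 CPM opposite. With 0 tags opposite in the untreated pair and 0 in naive cortex, it was at least 73.5-fold higher there and 10.6-fold higher in the LEV pair (3.36 ± 0.30, adjusted p = 0.00348). Its neighbour Apoc1 was at 36.0 and 30.4 CPM against 8.35 and 10.0 CPM (1.75 ± 0.13, adjusted p = 0.00181). Plin2, the coat protein of lipid droplets, was at 8.90 and 2.97 CPM against 2.61 and 2.52 CPM and was not called (0.81 ± 0.28, adjusted p = 0.21). The list's median was 1.42 without and 0.29 with LEV, so its members diverged between the pairs more than the lysosomal genes did, for which the medians were 0.86 and 0.43; the difference of these gaps was not tested.

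The promoters of 2 of these cathepsins are shown because their starts carry different letters. That of Ctsd (chr7:142387798-142388077, minus strand) has 2 matches on the reverse strand to GTCACGTG, the CLEAR element bound by lysosomal regulators of the TFEB family. That of Ctss (chr3:95526536-95526815, plus strand) has GAGGAAGT, bound by the myeloid factor PU.1, on the reverse strand across its start. The matches named here are in capitals. The Ctss promoter also holds TATAAA, on the reverse strand, and GAAANNGAA, bound by interferon regulatory factors, which are not marked.
Ctsd: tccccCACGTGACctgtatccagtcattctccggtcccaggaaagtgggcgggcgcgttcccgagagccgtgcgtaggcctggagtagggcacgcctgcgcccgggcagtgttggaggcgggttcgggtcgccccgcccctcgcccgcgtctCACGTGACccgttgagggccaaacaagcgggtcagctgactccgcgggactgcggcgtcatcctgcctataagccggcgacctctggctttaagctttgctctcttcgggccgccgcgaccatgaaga
Ctss: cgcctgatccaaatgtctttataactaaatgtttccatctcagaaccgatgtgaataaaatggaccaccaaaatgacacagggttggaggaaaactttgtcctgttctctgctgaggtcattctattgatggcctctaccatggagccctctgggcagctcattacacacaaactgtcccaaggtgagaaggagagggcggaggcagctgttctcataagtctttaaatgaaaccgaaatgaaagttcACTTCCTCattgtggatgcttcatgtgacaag

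Complement genes had the highest median of any list with a call, at 1.27 over 12 tested (1.59 without and 0.75 with LEV), and 6 were called higher, among them C1qa, C1qb, C1qc, C4b and Itgb2. C4b, the fourth component, was at 40.8 and 50.7 CPM against 13.3 and 18.8 CPM (1.47 ± 0.09, adjusted p = 0.0009). The 3 chains of C1q, which microglia make and which tags synapses for removal, moved together. C1qa was at 151 and 198 CPM against 47.7 and 91.1 CPM, C1qb at 181 and 162 CPM against 57.7 and 83.3 CPM, and C1qc at 198 and 206 CPM against 67.0 and 104 CPM. Their differences were 1.37, 1.29 and 1.26, with adjusted p of 0.00235, 0.00672 and 0.00373. C3, the central component, lay below the limit on expression at 0.934 and 0.521 CPM, with 0 tags in both opposite libraries.

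The promoter of C1qc (chr4:136892885-136893164, minus strand) is shown for its match to GAGGAAGT on the reverse strand, in capitals.
C1qc: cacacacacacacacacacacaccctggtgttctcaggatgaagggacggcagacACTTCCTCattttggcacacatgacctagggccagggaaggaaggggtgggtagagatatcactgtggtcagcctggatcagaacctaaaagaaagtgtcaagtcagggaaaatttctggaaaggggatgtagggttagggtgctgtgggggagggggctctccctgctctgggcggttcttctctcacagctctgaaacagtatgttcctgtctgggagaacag

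Genes of antigen presentation of both classes had the larger difference in the untreated pair. Of 13 MHC class I genes tested, 4 were called higher (B2m, H2-K1, H2-D1 and the immunoproteasome subunit Psmb8) and the median was 0.98 (1.34 without and 0.57 with LEV). B2m, the light chain, was at 97.0 and 117 CPM against 37.8 and 70.4 CPM (1.03 ± 0.13, adjusted p = 0.0156). H2-K1 was at 154 and 88.6 CPM against 51.3 and 53.6 CPM, and as H2-K1 and H2-D1 have near-identical relatives, tags may be divided among them. No class II gene of 6 was called, although their median of 1.41 was the highest of all lists. It was 2.40 without and 0.53 with LEV. Cd74, the class II invariant chain, was at 88.3 CPM on the untreated infarcted side, 11.9 CPM on the LEV infarcted side and 6.97 and 6.10 CPM opposite (2.17 ± 0.47, adjusted p = 0.084). H2-Ab1 was at 64.6 and 9.68 CPM against 6.46 and 5.81 CPM, and H2-Aa at 16.6 and 3.85 CPM against 1.60 and 1.86 CPM. In each of the 3, the untreated infarcted library stood alone.

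Macrophage genes had the same imbalance. Of 6 tested, 0 were called and all 6 had the larger difference in the untreated pair, with medians of 1.23 and 0.29. Such a gap raises the p of this test, so the 0 calls do not show that the sides were alike. Lyz2, the lysozyme of macrophages and neutrophils, which has a near-identical copy, was at 384 and 54.4 CPM on the infarcted side and 12.8 and 18 CPM opposite (3.17 ± 0.58, adjusted p = 0.0565). Ms4a7, a marker of macrophages other than microglia, was at 30.2 and 6.92 CPM against 1.60 and 2.29 CPM (2.43 ± 0.43, adjusted p = 0.0524). Summed over the whole list, including members below the limit, macrophage genes were at 437 CPM without and 75.3 CPM with LEV on the infarcted side and at 28.3 and 33.3 CPM opposite. The part of such cells in the differences of the phagocyte, lysosome and class II genes was not tested.

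Of 10 chemokine genes tested, 0 were called, with a median of 0.94 and the larger difference in the untreated pair for all 10. Ccl6 was at 35.9 and 8.75 CPM against 4.36 and 3.95 CPM (1.88 ± 0.34, adjusted p = 0.0565), and Ccl8 at 89.0 and 8.90 CPM against 4.28 and 5.05 CPM (2.40 ± 0.60, adjusted p = 0.113). Among 13 interferon-response genes, all were positive in both pairs and 2 were called, Ifitm3 (0.84) and Ifi27l2a (0.74).

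Lymphocyte and neutrophil markers were near the floor, apart from a few. Cd3g, a chain of the T cell receptor complex, was at 3.30 CPM on the untreated infarcted side, 0.0521 CPM on the LEV infarcted side and 0 and 0.19 CPM opposite. Cd3d was at 2.80 and 0.208 CPM against 0.363 and 0.143 CPM, so T cell transcripts were seen above the floor of 3 tags chiefly in the untreated infarcted library. The summed T and NK cell list was at 15.2 and 4.37 CPM against 4.36 and 2.95 CPM. Of the B and plasma cell genes, Mzb1 was at 0 CPM in 3 of the 4 libraries, and the summed list was at 5.03 and 4.48 CPM against 4.58 and 3.67 CPM. S100a8, a calcium-binding protein of neutrophils, was called at 13 and 8.33 CPM against 7.48 and 2.71 CPM (1.03 ± 0.17, adjusted p = 0.0453). The neutrophil granule gene Elane was at 0 CPM in both infarcted libraries and Ngp was at 0.574 and 0.677 CPM against 0.872 and 0.0952 CPM.

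Matrix genes differed between the sides chiefly in the untreated pair. Of 19 collagen and matrix genes tested, 0 were called, all 19 had the larger difference in the untreated pair (59.0% of all genes), and the medians were 0.73 and 0.22. Col1a1, a chain of fibrillar collagen, was at 147 and 20.9 CPM against 18 and 16.0 CPM (1.66 ± 0.46, adjusted p = 0.141). Col3a1, whose tags overlap those of Gm47302, was at 31.1 and 3.38 CPM against 3.41 and 2.05 CPM (1.69 ± 0.44, adjusted p = 0.118). The collagen difference was 8.15-fold and 9.11-fold for these genes in the untreated pair and 1.30-fold and 1.65-fold in the LEV pair.

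The small proteoglycan decorin, Dcn, was the 1 called gene among 10 of meningeal fibroblasts, at 52.6 and 29.4 CPM against 18.7 and 18.1 CPM (1.06 ± 0.16, adjusted p = 0.0348). That list summed to 718 CPM on the untreated infarcted side, 295 CPM on the LEV infarcted side and 286 and 226 CPM opposite, and the part of meninges in the matrix values was not tested. Of 9 metalloproteinases and inhibitors 0 were called, the macrophage elastase Mmp12 being at 12.9 and 1.09 CPM against 0.0726 and 0.19 CPM (2.25 ± 0.54, adjusted p = 0.101). Tgfb1, the cytokine that drives fibrosis, was called at 22 and 14.3 CPM against 13.9 and 7.81 CPM (0.71 ± 0.12, adjusted p = 0.0396). It was 1 of 11 genes in its list.

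Myelin genes were modestly higher. All 16 were positive in both pairs (35.4% of all genes), 5 were called (among them Cldn11, Trf, Mobp and Mbp) and the median was 0.35. Mbp, myelin basic protein, was at 2008 and 1697 CPM against 1476 and 1356 CPM (0.38 ± 0.05, adjusted p = 0.0191). Cldn11, the tight-junction protein of myelin, was at 63.3 and 77.6 CPM against 35.9 and 49.8 CPM (0.72 ± 0.08, adjusted p = 0.0093). Trf, the iron carrier that oligodendrocytes make, was at 154 and 143 CPM against 96.7 and 97.1 CPM (0.61 ± 0.07, adjusted p = 0.00718). The sides did not overlap for Mbp, Cldn11 or Trf, which describes the same values that gave their calls. No precursor gene of 10 was called, with a median of 0.19. No endothelial gene of 12 and no pericyte or smooth muscle gene of 10 was called (medians 0.17 and 0.17). In the iron and metal list 1 of 10 was called, the metallothionein Mt2, which was at 272 and 762 CPM against 173 and 521 CPM (0.60 ± 0.06, adjusted p = 0.00377); the LEV libraries were higher on both sides.

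The 8 genes called lower on the infarcted side differed by less than 1.5-fold. Among them were Mmp17, Rims3, Pvalb, Efhd2, Egr1, Pafah1b1 and Tspan5. Pvalb, the calcium buffer of fast-spiking interneurons (chr15:78191114-78206400, minus strand), was at 96.7 and 85.6 CPM on the infarcted side and at 129 and 113 CPM opposite, beside 134 CPM in naive cortex (-0.40 ± 0.06, adjusted p = 0.0382). Tspan5, a membrane tetraspanin, was at 221 and 210 CPM against 277 and 262 CPM (-0.32 ± 0.06, adjusted p = 0.0469). Rims3, a protein of the presynaptic release site, was at 117 and 134 CPM against 160 and 173 CPM (-0.41 ± 0.06, adjusted p = 0.0308). In each of these 3 genes both infarcted libraries lay below both opposite ones.

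Egr1, an activity-dependent transcription factor, was at 249 and 233 CPM against 316 and 292 CPM (-0.33 ± 0.05, adjusted p = 0.0422), while naive cortex was at 225 CPM, below all 4. Mmp17, a membrane-anchored metalloproteinase, was at 162 and 168 CPM against 240 and 207 CPM (-0.43 ± 0.07, adjusted p = 0.0471). Efhd2 (-0.35) and the dynein regulator Pafah1b1 (-0.33) were also called lower. None of the 8 was called with TMM factors, after centring on the median gene, at a mean of at least 5 CPM, by edgeR or by DESeq2, so these calls rest on the scale and the test used.

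Most lists of neuronal genes had medians slightly below zero, and Pvalb and Egr1 were their called members. The median of 20 ion channel genes was -0.22, with 13 negative in both pairs and 0 called, the potassium channel Kcnq3 being at 42.2 and 62.7 CPM against 60.1 and 76.5 CPM (-0.39 ± 0.08, adjusted p = 0.0757). Of 11 excitatory neuron genes 8 were negative in both pairs (median -0.12). Slc17a7, the vesicular glutamate transporter, was at 615 and 1516 CPM against 861 and 1738 CPM (-0.34 ± 0.07, adjusted p = 0.072), and the LEV libraries were higher on both sides. Of 14 inhibitory neuron genes 1 was called, and Gad1, which makes GABA, was at 206 and 229 CPM against 221 and 243 CPM (-0.09 ± 0.06, adjusted p = 0.489). Of 18 immediate early genes 12 were negative in both pairs with a median of -0.17, and Fos was at 10.7 and 11.9 CPM against 11.4 and 12.4 CPM. Of 17 genes of the cortical layers 0 were called and the median was 0.00, and of 8 perineuronal net genes 0 were called with a median of 0.02.

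The target of the drug and the inhibitory receptors were not called. Sv2a, the synaptic vesicle protein that LEV binds, was at 132 and 137 CPM on the infarcted side, 140 and 142 CPM opposite and 137 CPM in naive cortex (-0.07 ± 0.06, adjusted p = 0.682). Of 12 GABA-A receptor subunits 0 were called, with a median of -0.09 and 7 of the 12 negative in both pairs. The chloride exporter Slc12a5 was at 332 and 421 CPM against 342 and 459 CPM (-0.08 ± 0.05, adjusted p = 0.528). The chloride importer Slc12a2 was at 23.9 and 41.6 CPM against 29.4 and 40.8 CPM, and Bdnf, a neuronal growth factor, at 13.4 and 17.6 CPM against 16.4 and 20.9 CPM (-0.25 ± 0.10, adjusted p = 0.297). Of 16 genes of cholesterol synthesis 15 were negative in both pairs, with a median of -0.18 and 0 called.

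**Figure D2:**
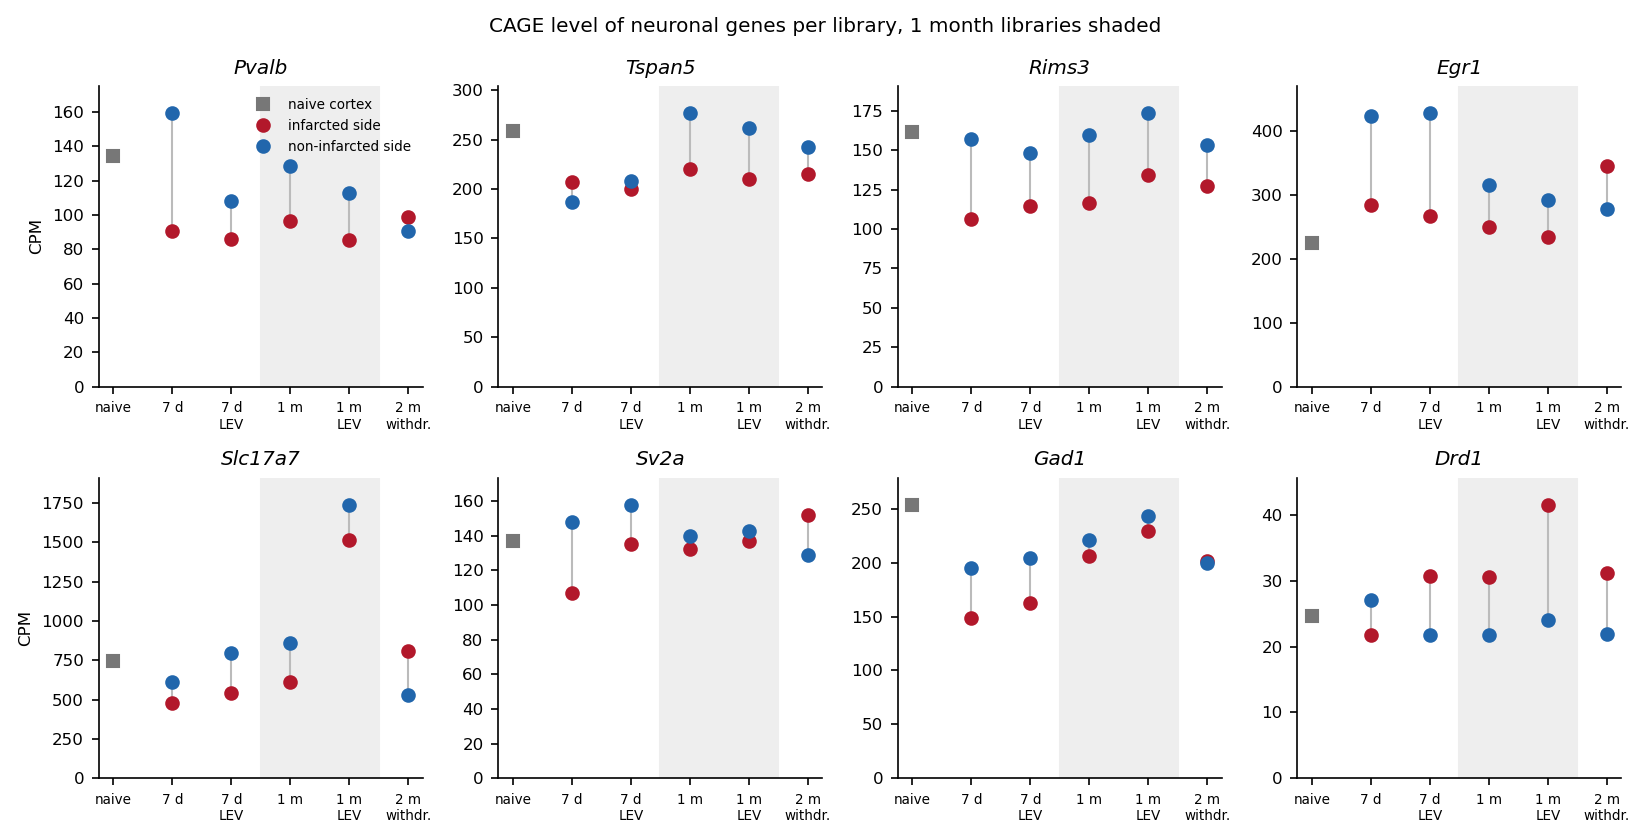
CPM (linear axis from 0) of 8 neuronal genes in all 11 libraries, with red for the infarcted side, blue for the non-infarcted side, a square for naive cortex and the 1 month libraries shaded. Pvalb, Tspan5, Rims3 and Egr1 are lower on the infarcted side in both 1 month pairs, Sv2a and Gad1 differ little, and Drd1 is higher.

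Genes of neighbouring regions measure how alike the pieces of tissue were. Of 10 striatal genes, 9 were positive in both pairs, all 10 had the larger difference in the LEV pair (medians 0.26 and 0.76), and 1 was called: the dopamine receptor Drd1, at 30.5 and 41.5 CPM against 21.8 and 24.0 CPM (0.62 ± 0.10, adjusted p = 0.0443). The list summed to 898 and 1037 CPM on the infarcted side and to 772 and 618 CPM opposite. Of 8 thalamic genes 0 were called (median 0.31), with sums of 105 and 89.8 CPM against 78.7 and 72.8 CPM. Ttr, made by the choroid plexus, was at 14.9 and 24.7 CPM against 19.8 and 195 CPM, and at 350 CPM in naive cortex. The part of uneven dissection in the neuronal and glial differences was not tested.

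Read alone, the pairs differed in extent. At least 2-fold higher on the infarcted side were 538 genes in the untreated pair (3.34% of those tested) and 202 in the LEV pair (1.25%). At least 2-fold lower were 99 (0.615%) and 16 (0.0994%). The pairs shared 130 of the higher genes, 24.2% of the untreated and 64.4% of the LEV list, and 0 of the lower ones. Among the 130 called higher genes, 117 had the larger difference in the untreated pair, as did 59.0% of all genes, and their median was 1.25 there and 0.80 in the LEV pair. At a mean of at least 5 CPM, 161 and 46 genes were at least 2-fold higher, and 61 and 1 lower, in the untreated and LEV pairs. The untreated libraries held 13925503 and 13769133 tags and the LEV ones 19208153 and 21000367, infarcted side first. With 1 library per group the gap between the pairs has no test, and treatment, animal, dissection and depth cannot be told apart in it.

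The widest gaps towards the untreated pair, among genes with a mean of at least 10 CPM, were those of Ccl8 (3.38), Lyz2 (3.25), Wfdc17 (3.01), Lgals3 (2.75), Cd74 (2.63), Col1a1 (2.60), Ttr (2.54) and Gpnmb (2.53), as log2 differences. Of these, Lgals3 and Gpnmb were called. Wfdc17, a secreted protein of activated macrophages, was at 126 and 13.2 CPM against 7.55 and 6.76 CPM. All but Ttr had their gap from a high untreated infarcted library, whereas that of Ttr came from the LEV opposite library. The widest gaps the other way were Sap30l (-1.76), Avp (-1.73), Git1 (-1.57), Purb (-1.53), Dyrk2 (-1.52), Lrrc10b (-1.49), Slc25a28 (-1.45) and Clk2 (-1.43). For Sap30l, Git1, Purb, Dyrk2, Slc25a28 and Clk2 the untreated opposite library was the highest of the 4. Purb, which binds purine-rich DNA, was at 70.3 and 125 CPM against 223 and 136 CPM. Over the 99 genes at least 2-fold lower in the untreated pair, the median was -1.02 there and -0.07 with LEV, and 0 were called. For 64 of the 99, the untreated non-infarcted library of 1 month was the highest of all 11 in the series. The 99 were picked as high in that library against its partner, so this rank and the median of -1.02 follow in part from the choice. The share of all genes highest in that library was not counted.

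**Figure D3:**
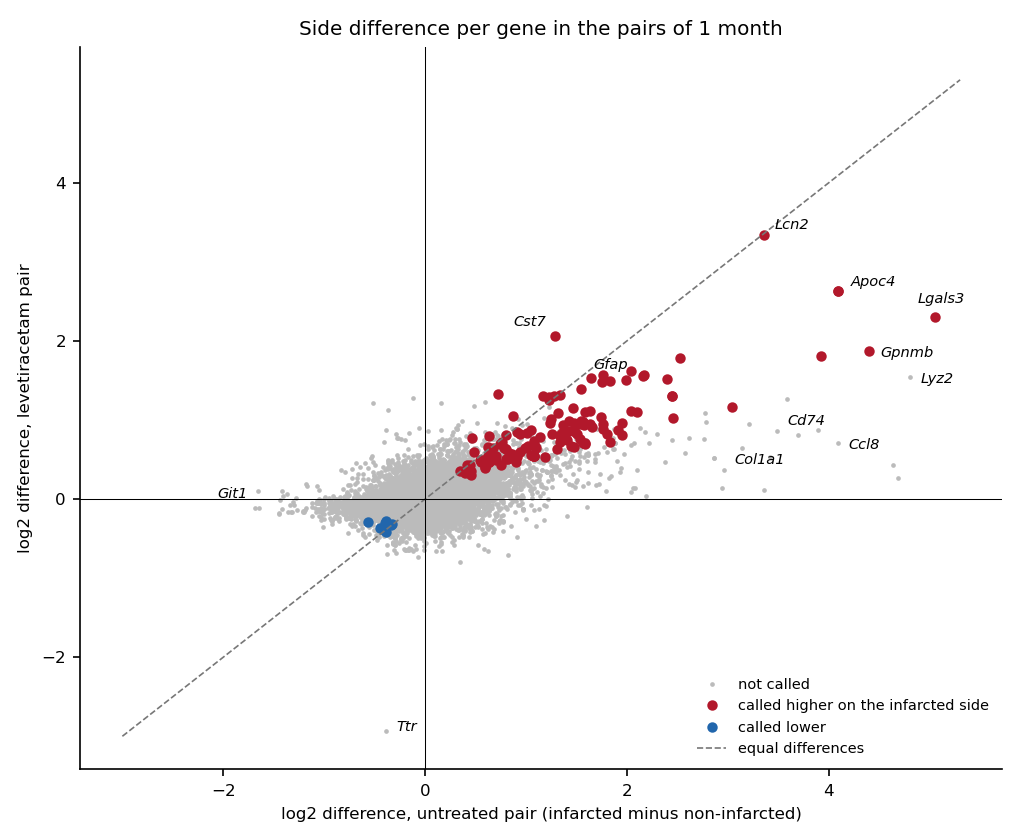
Log2 difference (infarcted minus non-infarcted, log2(CPM + 1)) of each gene in the untreated pair (x axis) and the LEV pair (y axis), with genes called higher in red, called lower in blue and the dashed line where both pairs are equal. Lcn2 lies on the line, most called genes lie below it, and Lyz2, Ccl8, Cd74 and Col1a1 lie far to the right without being called.

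Against the same contrast at 7 d, the side difference at 1 month was lower for most genes that changed. In a test of that difference over 8 libraries (limma with the state as a factor, 16228 genes), 494 genes had a lower (3.04%) and 9 a higher (0.0555%) side difference at 1 month. Of the 130 genes higher at 1 month, 127 were also higher in both 7 d pairs, as were 32.8% of all genes tested. Their median difference was 1.87 at 7 d and 1.07 at 1 month, 55 of them were lower and 3 higher at 1 month by the test, and 18 had the larger mean at 1 month. The test's count lay between 181 and 830 when 1 library was left out, being lowest without the untreated 7 d infarcted library and highest without the untreated 1 m non-infarcted library. It was 745 to 830 without any 1 of the 1 m libraries and 181 to 264 without any 1 of the 7 d libraries, and 306 with edgeR and 217 with DESeq2.

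Matrix genes were the list with the largest share of lower differences. Of 20 collagen and matrix genes tested, 18 were lower at 1 month and none higher. Col3a1 had a difference of 4.70 and 6.19 in the 7 d pairs and of 2.86 and 0.52 at 1 month (change -3.75, adjusted p = 0.008). Eln, which encodes elastin, had 47.6 and 60.3 CPM in the infarcted libraries of 7 d and 3.73 and 2.97 CPM at 1 month, against 4.14 and 2.00 CPM opposite (change -3.89, adjusted p = 0.00014). Postn, a matrix protein of fibroblasts, changed by -2.82. H19, a non-coding RNA abundant in fetal tissue whose tags cannot be told from those of Mir675, reached 23.2 and 25.7 CPM at 7 d and was at 0.431 and 0 CPM at 1 month (change -4.16). These genes were thus back near their opposite-side levels, except Col3a1 in the untreated library.

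The phagocyte genes were divided. Of 17 in the list 8 were lower at 1 month, as were 11 of 15 lysosome genes and 7 of 13 of resting microglia. Spp1 had 303 and 456 CPM in the infarcted libraries of 7 d and 26.0 and 17.7 CPM at 1 month (change -3.95, adjusted p = 5.5e-05). Plin2 went from 102 and 91.0 CPM to 8.90 and 2.97 CPM (change -3.43), and Mmp12 from 72.9 and 34.2 CPM to 12.9 and 1.09 CPM (change -3.01). Ctsd changed by -2.07, Tyrobp by -1.85 and Trem2 by -1.81. The histone gene H3c3, which shares tags with H2ac5-ps and marks cells making DNA, changed by -2.85, from 68.6 and 64.4 CPM to 5.74 and 8.02 CPM. Lgals3 (change -2.03, adjusted p = 0.12), Gpnmb (-2.43, 0.052) and Apoc4 (-0.85, 0.35) did not pass.

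For 9 genes the side difference was higher at 1 month as a signed value. Lcn2 had 10.0 and 6.90 CPM in the infarcted libraries of 7 d against 4.89 and 3.03 CPM opposite, so that its difference grew from 0.90 and 0.97 to 3.35 and 3.33 (change 2.41, adjusted p = 0.00015). Its opposite-side level had dropped while its infarcted-side level had risen, in single libraries. Chil1, a chitinase-like protein of reactive astrocytes, was at 31.6 and 26.9 CPM against 8.64 and 8.38 CPM at 1 month and at 17.2 and 15.3 CPM against 12.1 and 12.8 CPM at 7 d (change 1.30, adjusted p = 0.002). Tmem212 changed by 1.09. S100a9, the partner of S100a8, changed by 1.62 (adjusted p = 0.039), but its 7 d opposite-side library without LEV was at 54.0 CPM, far above the 6.01 CPM with LEV. The other 5 lay below zero in both 7 d pairs and nearer zero at 1 month in the mean of the pairs. They were Gstm1 (0.68), Cnr1, the cannabinoid receptor (0.65), Ppp1r7 (0.53), Pcp4 (0.47) and Gap43, a growth cone protein (0.43).

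Some groups had few or no called changes by this test, which does not show that they stayed the same. Gfap differed by 1.63 and 2.24 at 7 d and by 1.83 and 1.49 at 1 month (change -0.27, adjusted p = 0.48), and Serpina3n, C4b and A2m were likewise not called. Of 6 class II genes 0 were called, and Cd74 differed by 1.38 and 2.16 at 7 d and by 3.49 and 0.86 at 1 month (change 0.40, adjusted p = 0.79). No myelin gene of 16 and no gene of the excitatory, inhibitory, ion channel or vesicle lists was called. The medians of these neuronal lists were nonetheless nearer zero at 1 month: the vesicle list stood at -0.42 and -0.34 at 7 d and at -0.07 and -0.09 at 1 month. Those of the myelin list were 0.21 and 0.50 at 7 d and 0.43 and 0.28 at 1 month, without and with LEV.

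**Figure D4:**
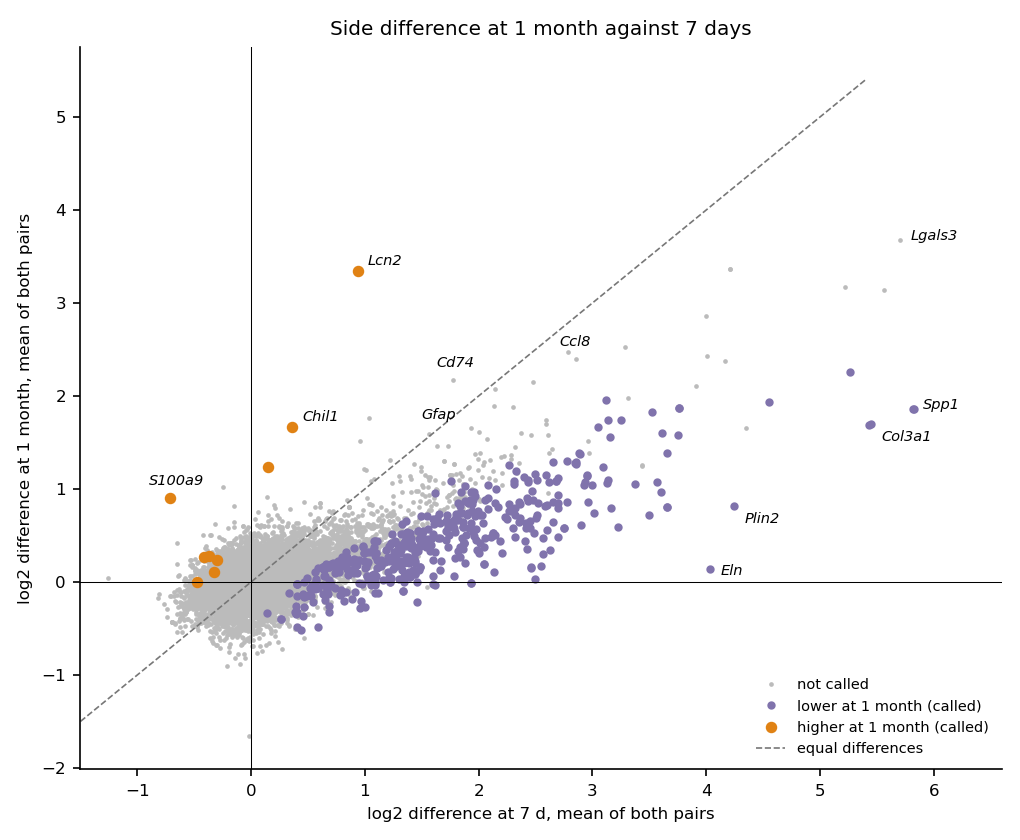
Mean log2 side difference of each gene at 7 d (x axis) and at 1 month (y axis), both pairs averaged, with genes whose difference was called lower at 1 month in purple and higher in orange; the dashed line marks equality. The cloud of responding genes lies below the line, Lcn2, Chil1 and S100a9 lie above it, and Cd74 and Gfap lie near it uncalled.

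In the withdrawn pair at 2 m, a pair of single libraries, all 130 higher genes were again higher on the infarcted side, beside 59.1% of all genes tested, with a median of 0.77. Of the 8 lower genes, 5 were lower in both 7 d pairs and 5 in the 2 m pair, beside 37.3% and 40.9% of all genes. Gfap stayed at 477 against 173 CPM and C4b at 49.9 against 18.5 CPM. Cd74 was at 60.2 against 13.6 CPM and the class II median was 1.88, nearer the untreated than the LEV pair of 1 month. Lcn2 was at 3.76 against 1.40 CPM, Chil1 at 17.3 against 16.7 CPM, and Pvalb was higher on the infarcted side, at 99.1 against 90.9 CPM.

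**Figure D5:**
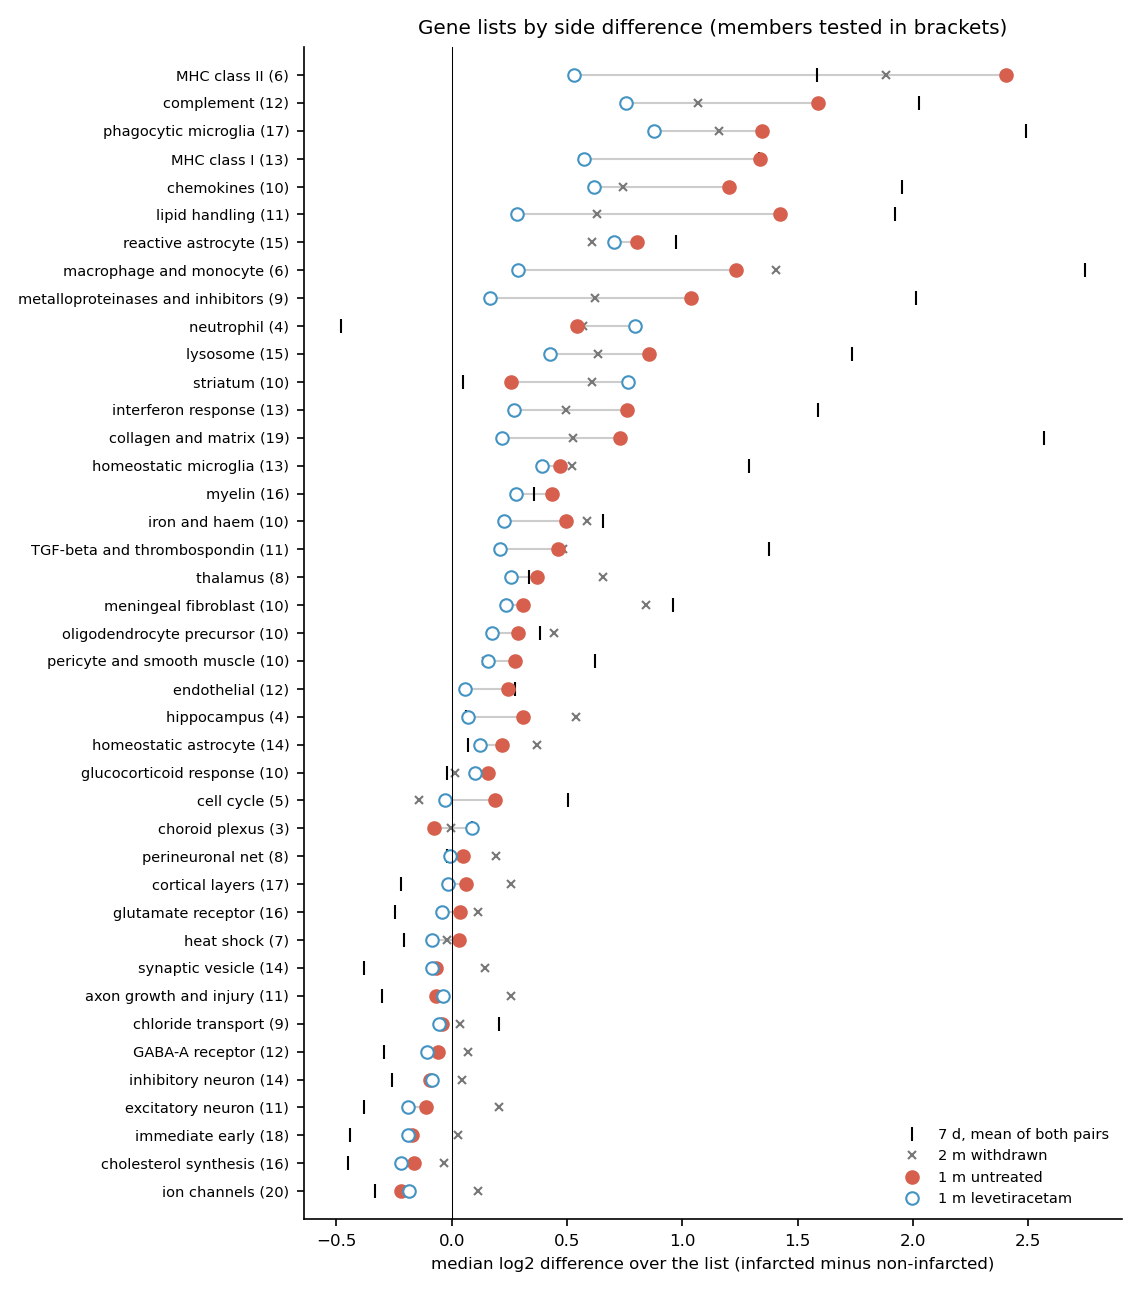
Median log2 side difference of each gene list with at least 3 tested members, with a filled point for the untreated and an open point for the LEV pair of 1 month, a bar for the mean of the 7 d pairs and a cross for the withdrawn pair of 2 m. MHC class II, lipid handling and macrophage lists have the widest gap between the 1 month pairs, reactive astrocytes a narrow one, and the matrix list falls from 7 d to 1 month.

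Because CAGE tags mark starts, the promoters of the called genes were searched for 6 sets of letters on both strands, from 250 bases before to 50 after each RefSeq start (GRCm38.p6). 92 of the 130 higher genes were matched, with 109 promoters. GAGGAAGT (PU.1) was in 10.1% of them, 2.73% of the promoters of all genes tested and 3.20% of all promoters. The TATA box letters TATAAA were in 20.2%, 7.47% and 13.6%. The AP-1 letters TGANTCA were in 12.8%, 5.05% and 7.81%. GAAANNGAA, bound by interferon regulatory factors, was in 11.9%, 6.93% and 8.56%. GTCACGTG was in 1.83%, 3.80% and 2.25%, and TTCCNGGAA in 1.83%, 1.17% and 1.15%. The first 4 were thus more frequent among the higher genes than among genes tested, without a test, and such matches are letters, not shown sites of binding. From 100 bases before the start, the shares among higher genes and genes tested were 5.50% and 1.62% for PU.1, 12.8% and 3.40% for TATAAA, 6.42% and 2.80% for the interferon letters and 4.59% and 2.26% for AP-1. Spi1, the gene of PU.1, which was picked after its values were seen, was called higher. It was at 19.5 and 19.7 CPM against 7.55 and 10.7 CPM (1.04 ± 0.14, limma adjusted p = 0.0181). Any link between its level and the shares of promoters was not tested. 5 of the 8 lower genes were matched and 0 of their 6 promoters held any of the 6.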

How the data were processed

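CAGE tags were counted in 11 libraries of mouse cortex and the 4 of 1 m were compared by side. The deposited values are CPM of 22377 genes, which the authors scaled to each library's total. HISAT2 2.0.5, BWA 0.7.17, DESeq2 1.20.0 and the build GRCm38 are listed with no stated role in the submitters' processing notes. Every value was a whole number of tags within 0.01 tag (100% in each library), so tags were recovered for the count tests. How tags were assigned to genes, and whether by strand, is not given in the sources used here. Identifiers were matched to GENCODE M21 (22335, 99.8%), the source of coordinates, and 1133 genes lying less than 5 kb from a gene with the same tags (to 5%, in all libraries) are taken as sharing them.

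Log2(CPM + 1) was tested with limma 3.58.1 (trend, R 4.3.3) over the 4 libraries with treatment as a factor (1 residual degree of freedom, prior 7.10), and the change from 7 d over 8 libraries with state as a factor (2). P-values were adjusted by Benjamini-Hochberg. edgeR 4.0.16 and DESeq2 1.42.0 ran on recovered tags. Ratios carry exact 95% binomial intervals and a floor of 3 tags, which cover counting error only. Alternatives were the pseudocount (0.25), the limit on expression (none, 5 CPM), scaling, pairing, fold limits of 1.5 and 4, left-out libraries and promoter window. Scripts were tested on simulated data.

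Members, 44 gene lists and tests were chosen with earlier results of these data known. Named genes are the 15 highest and the lower calls, up to 4 of each list by p, a panel of 22, the 8 widest gaps between pairs each way and the 8 highest and lowest changes from 7 d; called genes of a list and those in the closing observations were added after their values were seen. Some genes, among them called ones, are not reported here.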

Additional observations from a re-analysis of the deposited data

Results flagged for a closer look

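The side difference changed between 7 d and 1 month for 503 genes by the test of that change (limma, adjusted p under 0.05). The changes, in log2 units of 1 month minus 7 d, were largest upwards for Lcn2 (2.41), S100a9 (1.62), Chil1 (1.30), Tmem212 (1.09), Gstm1 (0.68), Cnr1 (0.65), Ppp1r7 (0.53) and Pcp4 (0.47). They were largest downwards for H19 (-4.16), Spp1 (-3.95), Eln (-3.89), Col3a1 (-3.75), Plin2 (-3.43), Mmp12 (-3.01), H3c3 (-2.85) and Postn (-2.82).

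Among the 8 genes with the widest gap in each direction, 6 differed between the sides in opposite directions in the untreated and LEV pairs. These genes were picked for that gap, and over all genes tested 62.5% had the same sign in both pairs. The reversal was not tested, as each group is 1 library. The untreated minus LEV gap was -1.76 for Sap30l, -1.73 for Avp, -1.52 for Dyrk2, -1.49 for Lrrc10b, -1.45 for Slc25a28 and -1.43 for Clk2. Avp, the vasopressin gene of the hypothalamus, was at 8.19 CPM against 12.1 CPM without and at 15.6 CPM against 6.14 CPM with LEV.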

How the results depend on the processing

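The count of 138 genes at 1 month was 306 with a pseudocount of 0.25, 39 at a mean of at least 5 CPM, 16 centred on the median gene, 36 with TMM factors, 40 with edgeR, 66 with DESeq2, 1 without the mean-variance trend, 0 without the treatment factor (782 at unadjusted p under 0.05) and 290 over 10 lesion libraries. In that last fit, leaving out 1 library gave 114 without the untreated infarcted library, 121 without the untreated non-infarcted one, 1115 without the LEV infarcted one and 1120 without the LEV non-infarcted one, which leaves 1 pair. Of 1193 recomputed values of called named genes, 750 kept direction and call and 443 kept direction only; 18 of 1064 values of uncalled genes reversed, all with 1 library left out, which reads 1 pair alone: Avp -0.52, Lrrc10b -0.36, Eln -0.12, Clk2 0.068, Dyrk2 0.10, Pcp4 0.074, Sap30l 0.11, Slc12a2 0.029 and Slc25a28 0.044.

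The 503 changes from 7 d were 289 with no limit on expression, 306 with edgeR, 217 with DESeq2, 200 without the trend and 181 to 830 with 1 library left out. The cause was not tested. Higher and lower genes numbered 1294 and 531 in the untreated and 637 and 162 in the LEV pair at 1.5-fold, 131, 0, 21 and 1 at 4-fold, and 161, 61, 46 and 1 at a mean of at least 5 CPM. From 100 bases before the start, 12.8% of higher promoters held TATAAA, 6.42% the interferon motif, 4.59% AP-1 and 5.50% PU.1. Counting error limits genes near the floor of 3 tags.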

Other observations

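Called genes outside the gene lists, picked after their values were seen, included parts of the phagocyte oxidase that makes superoxide. Cybb was at 3.30 and 2.03 CPM on the infarcted side, without and with LEV, against 0.290 and 0.476 CPM opposite (log2 difference 1.39 ± 0.24, limma adjusted p = 0.0469). Cyba was at 120 and 58.8 CPM against 30.2 and 33.0 CPM (1.38 ± 0.21, adjusted p = 0.0342), and Rac2, a GTPase that switches the oxidase on, at 9.05 and 4.58 CPM against 1.96 and 1.90 CPM (1.35 ± 0.22, adjusted p = 0.0396). Irf8, a transcription factor of microglia, was at 19.4 and 11 CPM against 6.68 and 6.19 CPM (1.08 ± 0.17, adjusted p = 0.0381).

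Other called genes outside the lists were also higher on the infarcted side, and in bulk tissue the cells that made them are not known. Cntf, ciliary neurotrophic factor, was at 2.80 and 2.86 CPM against 0.218 and 0.333 CPM (1.59 ± 0.21, adjusted p = 0.018). Il33, a cytokine held in the nuclei of glia, was at 52.4 and 48.6 CPM against 33.0 CPM in each opposite library (0.60 ± 0.08, adjusted p = 0.0196). Klk6, a protease of oligodendrocytes, was at 5.17 and 7.44 CPM against 1.74 and 2.43 CPM (1.24 ± 0.16, adjusted p = 0.0182). Tspo, the mitochondrial protein imaged as a sign of inflammation, was at 37.3 and 28.3 CPM against 24.8 and 19.8 CPM (0.53 ± 0.09, adjusted p = 0.0464). Igfbp5, which binds insulin-like growth factors, was at 421 and 283 CPM against 140 and 175 CPM (1.14 ± 0.17, adjusted p = 0.0265). In each of these genes, picked from the calls, both infarcted libraries stood above both opposite ones.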
